A study of Homo sapiens with 28 samples.

Results

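A set of 40 MYC and ribosome biogenesis genes was followed across HCT116 xenograft tumors and the cell cultures grown from them. They are MYC, its partner MAX, the MAX partner MXD4, and 37 genes of the nucleolar machinery that makes ribosomes. A gene was taken when the symbol in its row of the deposited count table was 1 of the 40 names. All 40 were found, each in 1 row of the 58278 rows, and all 40 passed the filter on low counts in the tumors and in the cultures. HCT116 is a human colorectal carcinoma cell line, here carrying a luciferase and green fluorescent protein reporter, that was injected under the skin of immunodeficient NOD SCID mice aged 5 weeks. The mice received by mouth vehicle (Control, 3 tumors), the CDK4 and CDK6 inhibitor Palbociclib at 100 mg/kg/day (5 tumors), the glutaminase inhibitor Telaglenastat at 150 mg/kg/day (4 tumors, spelled Telaglenestat in the sample labels), or both drugs at those doses (combination, 4 tumors), for 23 days. From 3 tumors of each group the cells were released with collagenase and trypsin and grown as cultures without any drug, so the 12 culture libraries carry only the earlier treatment of their tumor. Every library therefore comes from 1 cell line, the drug-treated cultures were not exposed to drug while they grew, and NOD SCID mice lack functional T and B cells.

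Ribosome assembly begins in the nucleolus, where RNA polymerase I copies the ribosomal DNA into a long precursor RNA. Small nucleolar ribonucleoproteins modify that RNA (the box C/D particles methylate it and the box H/ACA particles convert uridine to pseudouridine), and large sets of assembly factors fold and cut it into the precursors of the small (40S) and large (60S) subunits. MYC is a transcription factor that binds DNA as a dimer with MAX, classically at the E-box, and is known for driving the genes of this machinery, while MXD4 belongs to the MXD proteins that pair with MAX and repress.

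The sequence that MYC and MAX, or MXD4 and MAX, are known to bind stood in the RefSeq promoter windows of many members. A window runs from 250 bases before a start site to 50 bases after it (300 bases, GRCh38.p14), and 32 of the 40 members had at least 1 window. The letters CACGTG, which read the same on both strands, occurred in the windows of 17 of these 32 members (53.1%), against 11.0% of the 14591 protein-coding genes and 8.77% of all 27305 genes with a window. In 16 of the 17 members a match lay at most 70 bases before the start site or after it. MYC, NOP58, NOLC1, BOP1, RRP12, RRP1B, RRS1 and TCOF1 had no window here. Stretches of 30 bases around the match are shown for members whose values are given below, from the MYC network, the nucleolar proteins, both kinds of small nucleolar particle and the 40S factors, with the E-box in capitals, written along the gene's own strand, and with the position of its first base counted from the start-site base as 0. The coordinates are MXD4 chr4:2262330-2262359 (minus strand, position -238), LYAR chr4:4290068-4290097 (minus strand, position -64), GNL3 chr3:52686026-52686055 (plus strand, position 6), DDX21 chr10:68956604-68956633 (plus strand, position -31), FBL chr19:39846356-39846385 (minus strand, position 6), GAR1 chr4:109815781-109815810 (plus strand, position 31), RRP9 chr3:51941892-51941921 (minus strand, position -5) and UTP20 chr12:101280083-101280112 (plus strand, position -10). A match is a description of the letters and not of a bound site.
MXD4: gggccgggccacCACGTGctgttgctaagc
LYAR: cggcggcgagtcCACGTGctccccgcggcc
GNL3: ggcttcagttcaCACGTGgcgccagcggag
DDX21: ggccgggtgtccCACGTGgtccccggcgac
FBL: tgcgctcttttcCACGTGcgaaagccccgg
GAR1: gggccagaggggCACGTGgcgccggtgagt
RRP9: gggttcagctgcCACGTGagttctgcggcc
UTP20: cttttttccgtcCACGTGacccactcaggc

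The libraries held between 6273834 and 13815675 counted reads (tumors 6273834 to 10617936, cultures 7198540 to 13815675). The summed level of 18 proliferation markers was 2981 to 3212 CPM (read counts scaled to the size of the library, here on 1 scale for all 28 libraries) in Control, 1643 to 2192 in Palbociclib, 3192 to 3372 in Telaglenastat and 1517 to 2279 in combination tumors, and 5539 to 6194 in Control cultures. Of 10 colorectal epithelial markers, CDX1 was at 0 in all groups and the sum was 2705 to 3246 CPM in Control, 2950 to 4092 in Palbociclib, 1585 to 1748 in Telaglenastat and 2306 to 2587 in combination tumors. The 10 fibroblast markers, of which DCN, LUM and THY1 were at 0 in Control tumors, summed to 164.6 to 205.1 CPM in Control, 116.5 to 198.3 in Palbociclib, 55.62 to 73.03 in Telaglenastat and 110.1 to 159.3 in combination tumors, and to 3.413 to 26.25 in cultures. The 10 macrophage and leukocyte markers, with TYROBP at 0 in every group, summed to 15.05 to 20.61 CPM in Control, 22.39 to 31.49 in Palbociclib, 3.463 to 11.15 in Telaglenastat and 10.16 to 16.93 in combination tumors. The 8 endothelial markers summed to at most 4.077 CPM in any tumor. The host cells in these tumors are mouse cells, while the reads were aligned to the human genome. The sums for fibroblast, leukocyte and endothelial markers are thus reads counted on human genes and are no direct measure of host stroma. Whether reads from mouse cells are among them was not tested. The part of all these markers in the tumor results was not tested. Libraries also differed in how a gene's level went with the GC content of its transcript. The slope of log2 CPM, per standard deviation of GC content, was 0.246 to 0.257 in Control tumors, 0.0968 to 0.359 in Palbociclib tumors (lowest in replicate 2), -0.385 to -0.300 in Telaglenastat tumors and -0.283 to -0.161 in combination tumors, so that in tumors this trend and Telaglenastat treatment cannot be told apart. Among cultures the slope was -0.0692 to 0.178 in Control, -0.132 to -0.103 in Palbociclib and -0.13 to -0.0641 in combination cultures. Telaglenastat culture replicate 2 was at 0.418, against -0.034 and -0.0191 in the others of its group. The comparisons below are therefore given with a second fit in which GC content and exon length were corrected for in each library.

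In the tumors, Palbociclib alone moved none of the 40 genes past the test, whereas the Telaglenastat tumors held 20 members that were lower and 10 that were higher than in Control tumors. BOP1, RRP9, PPAN and RRP12, assembly factors of the 60S and 40S subunits, fell furthest, with log2 fold changes of -2.75, -2.09, -1.72 and -1.41. GNL3, NOP58, UTP20 and WDR12 rose most, by 0.54, 0.44, 0.44 and 0.40. The combination tumors held 15 members that were lower and 7 that were higher. A gene is called here when the quasi-likelihood test of edgeR gave an adjusted p under 0.05, with Benjamini-Hochberg adjustment over every gene tested, and SE is the standard error of the log2 fold change. The p-values measure the spread between these libraries, and in bulk RNA fewer cells of a type and less RNA per cell cannot be told apart.

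Those counts were read against all genes. In Telaglenastat tumors 28.5% of the 14848 tested genes were called lower and 22.6% higher, and in combination tumors 26.9% and 17.6%, so the members' shares were above the background for lower calls and near it for higher calls. Both comparisons use the same 3 Control tumors. The median log2 fold change of the 40 members was -0.23 in Telaglenastat tumors (0.03 over all tested genes). Scaled with DESeq2 size factors, the combination comparison had 15 lower and 11 higher members. After the GC and length correction 7 members were lower and 3 higher in Telaglenastat tumors (background 8.4% and 6.32%), and 5 were lower and 7 higher in combination tumors (background 13.1% and 13.3%). In Telaglenastat tumors 21 members lay below and 11 above all Control tumors without overlap (29.6% and 24.2% of all genes), and in combination tumors 15 and 9 (28.5% and 18.8%). The members that stayed lower after the correction in Telaglenastat tumors were BOP1 at -1.23, RRP9 at -0.88, WDR74 at -0.68, TCOF1 at -0.53, RRP12 at -0.44 and FBL at -0.27, joined by POLR1C at -0.40. Higher after the correction were RRS1 at 0.80, NHP2 at 0.28 and GNL3 at 0.25, of which NHP2 was called lower without it and RRS1 was not called. No other member was called in that corrected fit. In combination tumors the corrected fit called BOP1 at -0.88, PPAN at -0.82, FBL at -0.65, WDR74 at -0.44 and BYSL at -0.40 lower. It called RRS1 at 0.73, MYC at 0.40, NIP7 at 0.37, NHP2 at 0.31, GNL3 at 0.28, RRP1B at 0.26 and NOP56 at 0.19 higher.

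For Palbociclib tumors the count was 0 of 40 in each direction, against 3.6% of all genes called lower and 2.55% higher. At an unadjusted p under 0.05 edgeR listed 5 of the 40 members (18.2% of all genes). DESeq2 called 1 (7.9% of all genes), the 60S factor NIP7. Without Palbociclib tumor replicate 2 the count was also 0. With the correction 0 members were called (4% of all genes lower, 3.72% higher). NIP7 was at a log2 fold change of 0.22 (SE 0.07, adjusted p = 0.0969) in edgeR and MXD4 at 0.48 (SE 0.19, adjusted p = 0.168). In 5 members the Palbociclib and Control tumors did not overlap, with NCL, NOP56, DKC1 and BYSL below and NIP7 above (7.83% of all genes were below and 5.93% above).

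**Figure D1:**
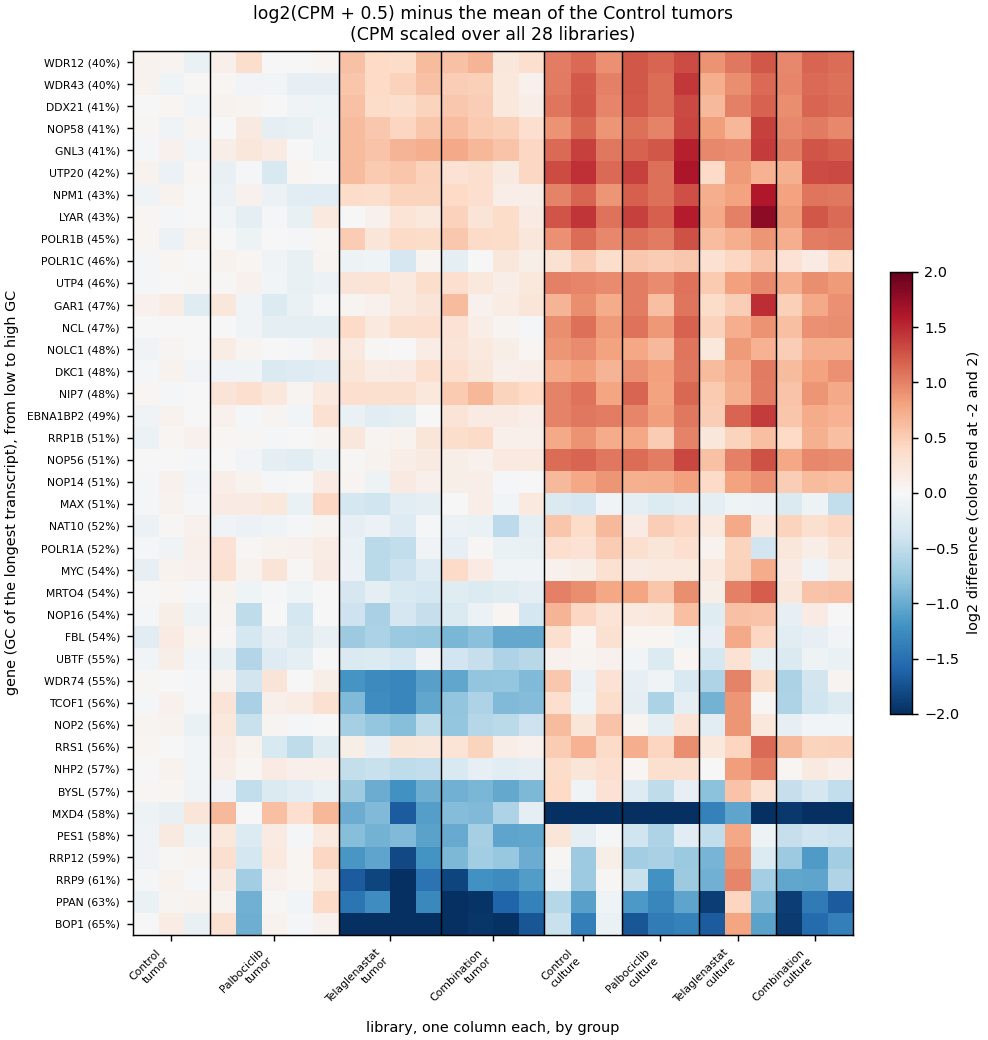
Heatmap of the 40 members (rows, ordered by transcript GC content) over the 28 libraries (columns, by group), as log2(CPM + 0.5) on the scale shared by all libraries minus the mean of the Control tumors (red higher, blue lower). The rows of high GC content are lower in Telaglenastat and combination tumors, and most rows are higher in all 12 cultures.

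The change with GC content was visible member by member. Of the 12 members above 55% GC, 11 were lower in Telaglenastat tumors, with a median log2 fold change of -1.26 (74.9% of all genes in that band were lower, median -1.11). Of the 9 members below 45% GC, 8 were higher, with a median of 0.39 (50.4% of all genes in the band, median 0.34). Of the 19 members from 45 to 55% GC, 9 were lower and 2 higher, with a median of -0.22. In all genes of that band 22.3% were lower and 9.43% higher, with a median of -0.05. In the combination tumors 11 of the 12 were lower (66.2% of genes) and 6 of the 9 were higher (33.0%). Of the 19, 4 were lower and 1 higher there (21.1% and 13.4% of genes). Over the 40 members, Pearson's r between GC content and the log2 fold change was -0.894 for Telaglenastat, -0.865 for the combination and 0.0751 for Palbociclib, against -0.674, -0.568 and 0.0771 over 14800 genes. The fold changes of one comparison share the same libraries, so these are descriptions.

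**Figure D2:**
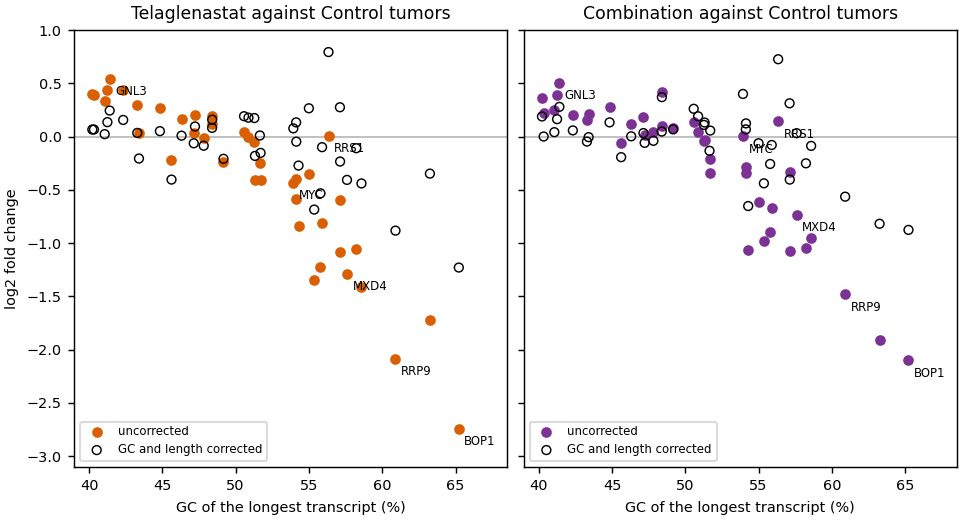
Log2 fold change of Telaglenastat tumors and of combination tumors against Control tumors (y axis) by the GC content of each member's longest transcript in percent (x axis), with filled points for the uncorrected fit and open circles for the fit corrected for GC content and length. Members above 55% GC lie mostly below 0 in the uncorrected fit, and members below 45% GC mostly above.

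MYC (ENSG00000136997.16, chromosome 8), the transcription factor at the head of the programme, was counted at 169, 197 and 201 CPM in the Control tumors, 230.5, 198, 226, 194 and 215 CPM in the Palbociclib tumors, 164, 122, 127 and 147 CPM in the Telaglenastat tumors and 224, 196, 169.7 and 169 CPM in the combination tumors, scaled within tumors. All 4 Telaglenastat tumors lay below the Control tumors, while the combination tumors overlapped with Control and lay above the Telaglenastat tumors. The log2 fold change was -0.43 (SE 0.11, adjusted p = 0.00246) in Telaglenastat, 0.17 (SE 0.10, adjusted p = 0.433) in Palbociclib and 0.0037 (SE 0.11, adjusted p = 0.983) in combination tumors, and 0.44 (SE 0.10, adjusted p = 0.00483) for the combination against Telaglenastat. With the GC and length correction MYC was at 0.08 (adjusted p = 0.724) in Telaglenastat and 0.40 (adjusted p = 0.0112) in combination tumors. In the cultures, scaled within cultures, MYC stood at 182, 184 and 210.4 CPM in Control, 189, 196 and 194 CPM in Palbociclib, 193, 233 and 283 CPM in Telaglenastat and 190.2, 163 and 188 CPM in combination cultures. The Telaglenastat cultures ran up to the highest value and overlapped with Control.

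MAX (ENSG00000125952.18, chr14:65006174-65102695 in GENCODE 29 on GRCh38, as are the positions that follow), the dimer partner of MYC, was at 36.7, 39.3 and 36.4 CPM in Control, 41.6, 42.4, 43.6, 34.6 and 50.7 CPM in Palbociclib, 27.4, 26.6, 29.1 and 30.1 CPM in Telaglenastat and 33.6, 38.3, 34.1 and 40.5 CPM in combination tumors. Telaglenastat tumors were the low group, below every Control and every combination tumor. Its log2 fold change was -0.41 (SE 0.11, adjusted p = 0.00532) in Telaglenastat tumors and 0.37 (SE 0.11, adjusted p = 0.0189) for the combination against Telaglenastat, and with the correction -0.18 (adjusted p = 0.323) and 0.31 (adjusted p = 0.046). In the cultures MAX ranged over 27.8, 26.5 and 31.95 CPM in Control, 29.6, 27.9 and 28.9 CPM in Palbociclib, 29.6, 31.3 and 30.9 CPM in Telaglenastat and 27.4, 31.4 and 23.8 CPM in combination cultures, with all groups overlapping Control.

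MXD4 (ENSG00000123933.16, chr4:2247432-2262294), a MAX partner that represses transcription, was the member with the lowest level per kilobase in Control tumors (2.90 CPM per kilobase of exon, against 457 for NPM1, the highest). Its tumor values were 19.04, 18.1 and 24.2 CPM in Control, 31.6, 20.2, 31.3, 26.2 and 32.9 CPM in Palbociclib, 9.40, 10.01, 5.45 and 8.46 CPM in Telaglenastat and 9.82, 9.98, 12.3 and 16.8 CPM in combination tumors. Both groups with Telaglenastat lay below all Control tumors, and Palbociclib tumors overlapped with Control. The log2 fold change was -1.29 (SE 0.22, adjusted p = 5.76e-05) in Telaglenastat, -0.74 (SE 0.21, adjusted p = 0.00704) in combination tumors and -1.22 (SE 0.19, adjusted p = 2.43e-05) for the combination against Palbociclib, and with the correction these were -0.41 (adjusted p = 0.137), 0.03 (adjusted p = 0.912) and -0.42 (adjusted p = 0.0612). In the cultures MXD4 was at 3.94, 1.60 and 2.73 CPM in Control, 2.11, 2.34 and 2.00 CPM in Palbociclib, 6.83, 8.43 and 1.38 CPM in Telaglenastat and 4.43, 2.92 and 2.63 CPM in combination cultures. Telaglenastat culture replicates 1 and 2 were the highest of the 12, and the group overlapped with Control through replicate 3.

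**Figure D3:**
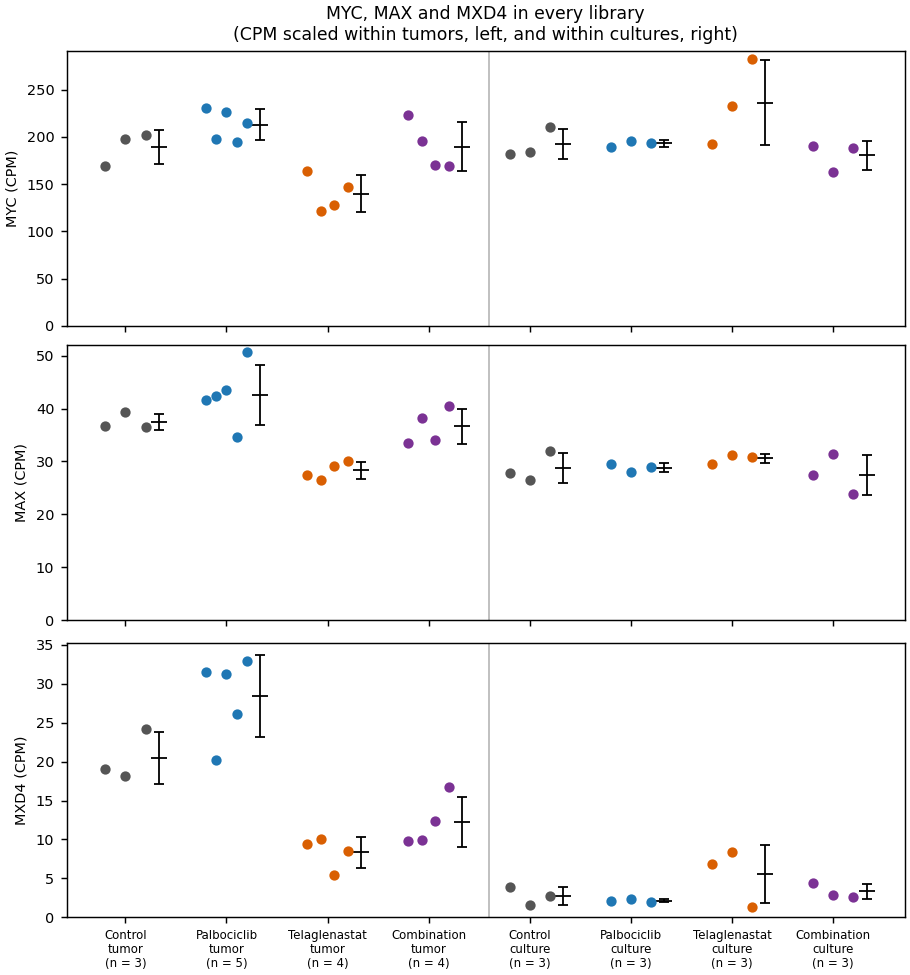
Levels of MYC, MAX and MXD4 in CPM on a linear axis from 0, with a point for each library and bars for the mean and SD of each group, scaled within tumors on the left and within cultures on the right. For all 3 genes the 4 Telaglenastat tumors lie below the 3 Control tumors, and in the cultures every group overlaps with Control.

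Of the 5 RNA polymerase I genes, 3 were lower and 1 higher in Telaglenastat tumors (28.5% and 22.6% of all genes). In combination tumors 2 were lower and 1 higher (26.9% and 17.6%). TCOF1 (ENSG00000070814.17, chr5:150357629-150400308), treacle, which links polymerase I to the ribosomal DNA, was at 68.3, 73.5 and 67.9 CPM in Control, 82.5, 44.7, 75.6, 78.6 and 87.3 CPM in Palbociclib, 35.6, 27.2, 25.5 and 31.3 CPM in Telaglenastat and 36.3, 42.2, 35.6 and 35.9 CPM in combination tumors. Every tumor that received Telaglenastat was below every Control tumor, and Palbociclib replicate 2 was low for its group. The log2 fold changes were -1.23 (SE 0.16, adjusted p = 3.69e-06) in Telaglenastat and -0.90 (SE 0.16, adjusted p = 1.24e-04) in combination tumors, and -0.53 (adjusted p = 0.00607) and -0.26 (adjusted p = 0.143) when corrected. POLR1B (ENSG00000125630.15, chr2:112541915-112577150), a catalytic subunit of the polymerase, went the other way, at 77.96, 69.2 and 79.5 CPM in Control, 74.2, 70.4, 74.99, 73.9 and 78.8 CPM in Palbociclib, 101, 82.99, 88.9 and 90.1 CPM in Telaglenastat and 99.4, 91.6, 91.95 and 83.3 CPM in combination tumors. Both Telaglenastat groups were above Control without overlap, by 0.27 (SE 0.08, adjusted p = 0.0104) and 0.28 (SE 0.08, adjusted p = 0.00918), and not called when corrected (0.05 and 0.13). Without Control tumor replicate 2 POLR1B missed the threshold in both (0.20 and 0.22). UBTF (ENSG00000108312.14, chr17:44205033-44221626), which binds the ribosomal DNA promoter, was at 102, 113 and 101 CPM in Control, 93.8, 70.2, 87.8, 93.05 and 107 CPM in Palbociclib, 80.8, 81.04, 74.4 and 93.3 CPM in Telaglenastat and 73.2, 71.05, 64.5 and 67.4 CPM in combination tumors. Combination tumors lay below every Control and every Telaglenastat tumor, at -0.61 (SE 0.11, adjusted p = 1.10e-04), with Telaglenastat at -0.35 (SE 0.11, adjusted p = 0.00881), and neither was called when corrected, at 0.27 (adjusted p = 0.0517) in Telaglenastat and -0.06 (adjusted p = 0.672) in combination tumors.

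In the cultures TCOF1 was at 79.9, 59.4 and 79.9 CPM in Control, 54.7, 40.7 and 54.5 CPM in Palbociclib, 32.2, 116 and 63.4 CPM in Telaglenastat and 40.8, 47.9 and 51.9 CPM in combination cultures. Palbociclib and combination cultures lay below Control, and Telaglenastat replicate 2 was the highest of all. POLR1B in cultures was at 129, 148 and 133 CPM in Control, 146, 140.5 and 164 CPM in Palbociclib, 104, 111 and 124 CPM in Telaglenastat and 113, 139 and 142 CPM in combination cultures, where Telaglenastat alone lay below Control. UBTF in cultures was at 101, 98.4 and 100.4 CPM in Control, 91.3, 79.1 and 96.8 CPM in Palbociclib, 73.8, 115 and 84.8 CPM in Telaglenastat and 76.8, 88.5 and 86.7 CPM in combination cultures. None of these culture differences was called.

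Among the 6 nucleolar shuttling and scaffold proteins none was lower (28.5% of all genes in Telaglenastat and 26.9% in combination tumors). In Telaglenastat tumors 4 were higher (22.6% of all genes), and in combination tumors 2 (17.6%). GNL3 (ENSG00000163938.16, chr3:52681156-52694492), nucleostemin, a nucleolar GTPase, was at 201, 215 and 198 CPM in Control, 221, 241, 229, 206 and 194 CPM in Palbociclib, 299.9, 283, 297 and 313 CPM in Telaglenastat and 313, 303, 287 and 258 CPM in combination tumors. All tumors with Telaglenastat were above all Control tumors, by 0.54 (SE 0.08, adjusted p = 1.42e-05) and 0.50 (SE 0.08, adjusted p = 3.98e-05), and it was called in both when corrected as well (0.25 and 0.28). DDX21 (ENSG00000165732.12, chr10:68956128-68985073), an RNA helicase of the nucleolus, was at 391, 397 and 377 CPM in Control, 400.0, 404, 387, 375 and 369.7 CPM in Palbociclib, 552, 469, 447 and 492 CPM in Telaglenastat and 509, 509.5, 423 and 402 CPM in combination tumors. It rose by 0.33 (SE 0.09, adjusted p = 0.0032) in Telaglenastat and 0.25 (SE 0.09, adjusted p = 0.0259) in combination tumors, with corrected values of 0.02 and 0.04, and the combination call was lost without any 1 of the 3 Control tumors (0.22 to 0.26) or without combination replicate 1 or 2 (0.20 each). LYAR (ENSG00000145220.13, chr4:4267701-4290169), a zinc-finger nucleolar protein, was at 57.6, 54.4 and 55.8 CPM in Control, 53.05, 49.3, 55.4, 50.8 and 64.7 CPM in Palbociclib, 52.5, 55.7, 61.2 and 60.1 CPM in Telaglenastat and 70.2, 62.4, 68.4 and 59.1 CPM in combination tumors. Combination tumors were above Control without overlap, but the difference was not called, at 0.22 (SE 0.09, adjusted p = 0.069).

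In the cultures GNL3 was at 407, 475 and 383 CPM in Control, 416, 437 and 539 CPM in Palbociclib, 358, 352 and 484 CPM in Telaglenastat and 373, 442 and 429.5 CPM in combination cultures. DDX21 was at 739, 824 and 687 CPM in Control, 821, 762 and 866 CPM in Palbociclib, 546, 695 and 788 CPM in Telaglenastat and 662, 789 and 764 CPM in combination cultures. For both genes every drug group overlapped with Control. LYAR was at 122, 137 and 107 CPM in Control, 131, 117 and 149 CPM in Palbociclib, 84.8, 101 and 173 CPM in Telaglenastat and 91.1, 119.6 and 111 CPM in combination cultures, again with overlap throughout. The other members of the role, NCL, NPM1 and NOLC1, had tumor log2 fold changes of 0.20, 0.29 and -0.01 in Telaglenastat. NPM1 has 45 named pseudogenes, so its reads could be split between copies and its values are uncertain. NCL was not called without any 1 of the 3 Control tumors (0.20 each) or without Telaglenastat tumor replicate 1 (0.17).

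The 3 box C/D core proteins did not move together. FBL (ENSG00000105202.8, chr19:39834458-39846414), fibrillarin, the methyltransferase, was at 169, 222 and 207 CPM in Control, 199.6, 156, 177, 164 and 181 CPM in Palbociclib, 112, 119.8, 107 and 108 CPM in Telaglenastat and 95.1, 103, 91.8 and 91.6 CPM in combination tumors. Both Telaglenastat groups were lower without overlap, at -0.83 (SE 0.09, adjusted p = 3.95e-07) and -1.06 (SE 0.09, adjusted p = 6.13e-08), and lower when corrected (-0.27 and -0.65). NOP58 (ENSG00000055044.10, chr2:202265716-202303666), a scaffold of the particle, was at 143, 132 and 145 CPM in Control, 137, 159, 124, 128 and 135 CPM in Palbociclib, 205, 191, 172 and 191 CPM in Telaglenastat and 195, 188, 185 and 166 CPM in combination tumors. It was higher by 0.44 (SE 0.09, adjusted p = 2.85e-04) and 0.39 (SE 0.09, adjusted p = 9.80e-04), and not called when corrected (0.14 and 0.16). NOP56 (ENSG00000101361.16, chr20:2652145-2658393), its partner scaffold, was at 248, 247 and 242 CPM in Control, 240.0, 239, 217, 211 and 232 CPM in Palbociclib, 235, 241, 245 and 259 CPM in Telaglenastat and 241, 242, 266 and 267 CPM in combination tumors. Its difference from Control was not called in Telaglenastat or combination tumors (-0.0036 and 0.05), though the latter was called when corrected (0.19). It was called higher in combination than in Palbociclib tumors, at 0.16 (SE 0.06, adjusted p = 0.0308).

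The cultures had FBL at 224, 183 and 219 CPM in Control, 184, 184 and 167 CPM in Palbociclib, 159, 299 and 235 CPM in Telaglenastat and 153, 160.3 and 171 CPM in combination cultures, with only the combination below Control without overlap. NOP58 in cultures was at 237, 280.2 and 232 CPM in Control, 271, 252 and 316 CPM in Palbociclib, 225, 198 and 323 CPM in Telaglenastat and 246, 259 and 247 CPM in combination cultures. NOP56 in cultures was at 481, 494 and 457 CPM in Control, 483, 455 and 555 CPM in Palbociclib, 332, 439 and 532 CPM in Telaglenastat and 379, 432 and 427 CPM in combination cultures, where the combination lay below Control.

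Of the 3 box H/ACA genes, NHP2 was lower and the others were not called in Telaglenastat or combination tumors against Control. NHP2 (ENSG00000145912.8, chr5:178149460-178153967), an RNA-binding core protein, was at 50.6, 52.8 and 49.1 CPM in Control, 55.03, 52.5, 57.2, 55.2 and 55.2 CPM in Palbociclib, 34.4, 34.8, 32.3 and 33.3 CPM in Telaglenastat and 37.2, 42.00, 41.1 and 41.7 CPM in combination tumors. Telaglenastat tumors were lowest and combination tumors lay between them and Control without overlap, at -0.59 (SE 0.08, adjusted p = 3.48e-06) and -0.33 (SE 0.08, adjusted p = 0.00183), and both turned to positive when corrected (0.28 and 0.31). An exon stretch of 27.4% of NHP2 overlaps a gene on the opposite strand. DKC1 (ENSG00000130826.17, chrX:154762742-154777689), dyskerin, the pseudouridine synthase, was at 162, 171 and 159 CPM in Control, 154, 155, 134, 138 and 143 CPM in Palbociclib, 183, 169.7, 167 and 191 CPM in Telaglenastat and 187, 179, 166 and 170.2 CPM in combination tumors. Palbociclib tumors were below Control and below the combination without overlap, and the combination was higher than Palbociclib by 0.28 (SE 0.06, adjusted p = 0.00133), and by 0.23 when corrected. GAR1 (ENSG00000109534.16, chr4:109815510-109824740), another core protein, was at 37.6, 39.2 and 30.01 CPM in Control, 40.7, 33.7, 29.4, 32.5 and 35.4 CPM in Palbociclib, 34.7, 35.03, 36.97 and 39.2 CPM in Telaglenastat and 50.1, 35.2, 37.1 and 39.8 CPM in combination tumors, with every group overlapping Control.

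In cultures NHP2 was at 59.3, 54.1 and 57.6 CPM in Control, 47.2, 57.8 and 56.6 CPM in Palbociclib, 45.2, 80.9 and 91.8 CPM in Telaglenastat and 46.96, 52.3 and 49.3 CPM in combination cultures. DKC1 was at 251, 263 and 235 CPM in Control, 277, 263 and 304 CPM in Palbociclib, 227, 247 and 301 CPM in Telaglenastat and 229, 258 and 277 CPM in combination cultures. Combination cultures were below Control for NHP2, and Palbociclib cultures above Control for DKC1, without a call. GAR1 was at 51.6, 60.8 and 53.3 CPM in Control, 65.2, 48.8 and 66.9 CPM in Palbociclib, 41.1, 44.4 and 88.7 CPM in Telaglenastat and 44.6, 54.4 and 60.6 CPM in combination cultures.

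Of the 8 genes for 40S assembly, 4 were lower and 2 higher in Telaglenastat tumors (28.5% and 22.6% of all genes). In combination tumors 4 were lower and 1 higher (26.9% and 17.6%). RRP9 (ENSG00000114767.6, chr3:51933430-51941941), a protein of the U3 particle, was at 21.2, 22.3 and 20.99 CPM in Control, 24.1, 13.1, 22.9, 22.4 and 24.9 CPM in Palbociclib, 6.07, 5.28, 1.97 and 6.83 CPM in Telaglenastat and 5.07, 8.34, 8.22 and 9.05 CPM in combination tumors. All tumors with Telaglenastat were below Control, at -2.09 (SE 0.27, adjusted p = 2.79e-06) and -1.48 (SE 0.26, adjusted p = 1.05e-04), and at -0.88 (adjusted p = 0.00789) and -0.56 (adjusted p = 0.0512) when corrected. RRP12 (ENSG00000052749.13, chr10:97356358-97426076), needed for export of the pre-40S particle, was at 35.7, 37.9 and 39.02 CPM in Control, 46.1, 29.2, 43.2, 38.8 and 50.7 CPM in Palbociclib, 15.5, 16.5, 9.39 and 14.8 CPM in Telaglenastat and 17.9, 21.3, 20.8 and 17.5 CPM in combination tumors. It was lower by the same pattern, at -1.41 (SE 0.17, adjusted p = 1.32e-06) and -0.95 (SE 0.17, adjusted p = 1.14e-04), and at -0.44 (adjusted p = 0.0272) and -0.09 (adjusted p = 0.674) when corrected. UTP20 (ENSG00000120800.4, chr12:101280109-101386616), a large scaffold of the small subunit processome, was at 48.5, 42.1 and 47.3 CPM in Control, 40.9, 44.9, 37.3, 47.4 and 46.1 CPM in Palbociclib, 67.2, 61.7, 61.7 and 58.95 CPM in Telaglenastat and 51.02, 53.2, 49.3 and 57.7 CPM in combination tumors. Telaglenastat tumors were the highest group without overlap, at 0.44 (SE 0.09, adjusted p = 6.53e-04), and at 0.16 (adjusted p = 0.256) when corrected. Combination tumors were above Control without a call, at 0.20 (SE 0.09, adjusted p = 0.0925).

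The cultures of RRP9 were at 18.4, 11.6 and 19.7 CPM in Control, 14.04, 8.12 and 11.3 CPM in Palbociclib, 9.66, 38.1 and 11.8 CPM in Telaglenastat and 9.10, 9.12 and 12.6 CPM in combination cultures. RRP12 was at 34.6, 20.2 and 36.5 CPM in Control, 20.7, 21.5 and 19.8 CPM in Palbociclib, 17.4, 62.02 and 27.6 CPM in Telaglenastat and 20.3, 15.1 and 20.8 CPM in combination cultures. For both genes Telaglenastat culture replicate 2 was the highest library and the others of its group lay within or below the range of the Control cultures. UTP20 was at 103, 114 and 90.7 CPM in Control, 107, 89.8 and 126 CPM in Palbociclib, 53.96, 74.3 and 66.7 CPM in Telaglenastat and 67.98, 103 and 104 CPM in combination cultures, with Telaglenastat below Control without overlap (-0.66 (SE 0.18, adjusted p = 0.711)).

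The 12 genes for 60S assembly held the largest fall. In this role 8 were lower and 2 higher in Telaglenastat tumors (28.5% and 22.6% of all genes), and 6 and 2 in combination tumors (26.9% and 17.6%). BOP1 (ENSG00000261236.7, chromosome 8), which forms the PeBoW complex with PES1 and WDR12, was at 34.4, 37.5 and 30.8 CPM in Control, 41.7, 17.05, 36.1, 33.5 and 36.8 CPM in Palbociclib, 6.97, 4.45, 3.79 and 5.20 CPM in Telaglenastat and 6.66, 7.89, 7.79 and 9.50 CPM in combination tumors. Every tumor with Telaglenastat was below every Control tumor, at -2.75 (SE 0.24, adjusted p = 3.37e-08) and -2.10 (SE 0.23, adjusted p = 5.67e-07), and at -1.23 (adjusted p = 3.05e-05) and -0.88 (adjusted p = 2.83e-04) when corrected. Its partners split, with PES1 at -1.06 and WDR12 at 0.40 in Telaglenastat tumors. PPAN (ENSG00000130810.19, chr19:10106289-10111634), a Brix-domain factor, was at 15.1, 17.1 and 17.4 CPM in Control, 17.1, 8.26, 16.8, 15.99 and 22.03 CPM in Palbociclib, 5.31, 6.26, 2.42 and 5.94 CPM in Telaglenastat and 3.33, 3.57, 4.82 and 5.79 CPM in combination tumors. It was lower at -1.72 (SE 0.29, adjusted p = 5.39e-05) and -1.91 (SE 0.29, adjusted p = 2.39e-05), and at -0.35 (adjusted p = 0.352) and -0.82 (adjusted p = 0.0104) when corrected, but 59.8% of its exons are shared with a same-strand neighbour, which leaves its counts uncertain. WDR74 (ENSG00000133316.15, chr11:62832342-62841809), which acts with a nucleolar ATPase, was at 37.3, 36.5 and 35.7 CPM in Control, 37.97, 28.2, 44.1, 36.9 and 40.3 CPM in Palbociclib, 14.9, 13.8, 13.2 and 15.7 CPM in Telaglenastat and 15.8, 19.5, 20.1 and 18.6 CPM in combination tumors. Both groups were lower without overlap, at -1.34 (SE 0.13, adjusted p = 1.10e-07) and -0.98 (SE 0.13, adjusted p = 5.10e-06), and called when corrected (-0.68 and -0.44).

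In cultures BOP1 was at 22.6, 11.6 and 27.99 CPM in Control, 9.01, 11.4 and 11.6 CPM in Palbociclib, 9.31, 53.2 and 14.2 CPM in Telaglenastat and 7.74, 10.3 and 11.6 CPM in combination cultures. PPAN was at 9.96, 6.76 and 13.9 CPM in Control, 6.44, 5.78 and 6.82 CPM in Palbociclib, 3.65, 20.04 and 7.79 CPM in Telaglenastat and 3.69, 5.31 and 4.38 CPM in combination cultures. WDR74 was at 48.2, 30.2 and 40.4 CPM in Control, 29.1, 31.4 and 26.4 CPM in Palbociclib, 21.1, 64.9 and 41.4 CPM in Telaglenastat and 21.02, 25.5 and 34.01 CPM in combination cultures. In all of these genes Telaglenastat culture replicate 2 was the highest of the 12 libraries, and for PPAN the combination cultures lay below Control without overlap. Over the 40 members, the log2 difference of that replicate from the others of its group went with GC content at r = 0.809 (0.623 over 13941 genes). NAT10, EBNA1BP2 and NIP7, at -0.25, -0.24 and 0.19 in Telaglenastat tumors, each lost the call without some single library. These were Control tumor replicates 2 and 3 and Telaglenastat tumor replicate 3 for NAT10 (-0.24 to -0.20), these and Telaglenastat tumor replicate 2 for EBNA1BP2 (-0.24 to -0.20), and each Control tumor and Telaglenastat tumor replicates 1 to 3 for NIP7 (0.17 to 0.22). NOP2 shares 54.4% of its exons with a same-strand neighbour, and NIP7 (20.2%), NOP16 (19.95%), EBNA1BP2 (18.8%), POLR1C (18.2%) and NOP14 (17.1%) share exon stretches with genes on the opposite strand, so their counts are uncertain.

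The combination was also compared with each drug alone. MYC and MAX, lower in Telaglenastat tumors than in Control, were higher in combination than in Telaglenastat tumors, and the strong falls of BOP1, PPAN and RRP9 had counterparts between combination and Palbociclib tumors (-2.05, -1.86 and -1.48). Combination tumors against Palbociclib tumors had 16 members lower and 13 higher, against 27.5% and 20.1% of all genes, and 5 and 5 when corrected (7.97% and 7.35%). In this comparison 15 members lay below and 6 above without overlap (22.1% and 11.9% of all genes). Combination tumors against Telaglenastat tumors had 0 lower and 5 higher, against 9.89% and 8.93% of all genes, and 3 members lay below and 8 above without overlap (11.1% and 10.2%). The 5 were MYC and MAX (given above), NHP2 at 0.27 (SE 0.07, adjusted p = 0.0163), EBNA1BP2 at 0.32 (SE 0.08, adjusted p = 0.00811) and NIP7 at 0.22 (SE 0.07, adjusted p = 0.0363). When corrected, NHP2 was not called (0.04), MYC, MAX, NIP7 and EBNA1BP2 were higher and UBTF (-0.33) and FBL (-0.38) were lower (background 7.21% lower and 8.49% higher). Without Telaglenastat tumor replicate 2 or combination tumor replicate 4, MAX was not called (0.34 and 0.33). These comparisons share libraries with those against Control, so their values are not independent of them.

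Cultures from Control tumors were set against the Control tumors, to ask how the programme differed once the same cells grew outside the mouse. On the scale shared by all 28 libraries, the 37 nucleolar members together took 0.617% of scaled reads in Control tumors and 1.149% in Control cultures. The mean sum was 6170 CPM in Control tumors and 11490 CPM in Control cultures. Of these sums NPM1, whose values are uncertain, held 1638 and 3308 CPM, and NCL 1125 and 2198 CPM. Of the 40 members, 26 were higher and 1 was lower in the cultures (22.8% and 23.1% of the 15466 tested genes), with a median log2 difference of 0.65 (-0.07 over all tested genes). With the correction, 34 were higher and 1 lower (22.8% and 17.7%). UTP20 stood at 45.2, 39.7 and 44.1 CPM in Control tumors and 107, 119 and 94.4 CPM in Control cultures, a log2 difference of 1.31 (SE 0.14, adjusted p = 4.64e-08). LYAR stood at 53.7, 51.3 and 52.04 CPM and 126, 142 and 111 CPM, a difference of 1.27 (SE 0.17, adjusted p = 1.13e-06). GNL3 was at 187, 203 and 185 CPM and 420.3, 494 and 399 CPM, a difference of 1.19 (SE 0.12, adjusted p = 1.55e-08). These genes did not overlap between tumors and cultures, as was so for 27 members above and 2 below (28% and 31.1% of all genes). The proliferation markers given above were higher in Control cultures too. The human fibroblast marker genes summed to 8.177 to 9.648 CPM there, which gives no measure of host stroma. Their part in the result was not tested.

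By role, all 6 shuttling and scaffold proteins were higher, with a median of 1.06, while 2 of 3 box C/D, 2 of 3 box H/ACA, 3 of 5 polymerase I, 5 of 8 of the 40S and 8 of 12 of the 60S genes were called (22.8% of all genes were higher). The difference also went with GC content, at r = -0.705 over the members and -0.333 over 15411 genes. Below 45% GC 9 of 9 members were higher (40.2% of genes), and above 55% 2 of 12 (2.74%). From 45 to 55% GC 15 of 19 members were higher and 0 lower (19.6% and 21.3% of genes). The part of this trend in the split by role was not tested. NOP56 rose to 497, 514 and 476 CPM from 232, 233 and 226 CPM, by 1.11 (SE 0.11, adjusted p = 1.14e-08). DDX21 rose by 1.10 (SE 0.12, adjusted p = 2.93e-08) and POLR1B by 1.00 (SE 0.10, adjusted p = 1.14e-08). The MYC network went differently. MXD4 fell from 17.8, 17.1 and 22.6 CPM to 4.06, 1.66 and 2.84 CPM, at -2.74 (SE 0.38, adjusted p = 1.93e-06), and at -2.13 (adjusted p = 2.09e-06) when corrected. MYC itself stood at 157, 186 and 188 CPM in tumors and 188, 191 and 219 CPM in cultures, with overlap, at a log2 difference of 0.17 (SE 0.13, adjusted p = 0.299). It was at 0.47 (adjusted p = 0.00632) when corrected. MAX, RRP9, BOP1 and PPAN were called in neither fit, with log2 differences of -0.24, -0.23, -0.58 and -0.55. NOP16, POLR1A, NOP2 and RRS1, at 0.47, 0.38, 0.50 and 0.54, each lost the call in some fits that left out 1 Control tumor or culture (lowest values 0.35, 0.32, 0.42 and 0.45). Members with the E-box letters had a median difference of 0.78 and those with a window without them 0.47, and 12 of 17 and 10 of 15 were called higher.

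**Figure D4:**
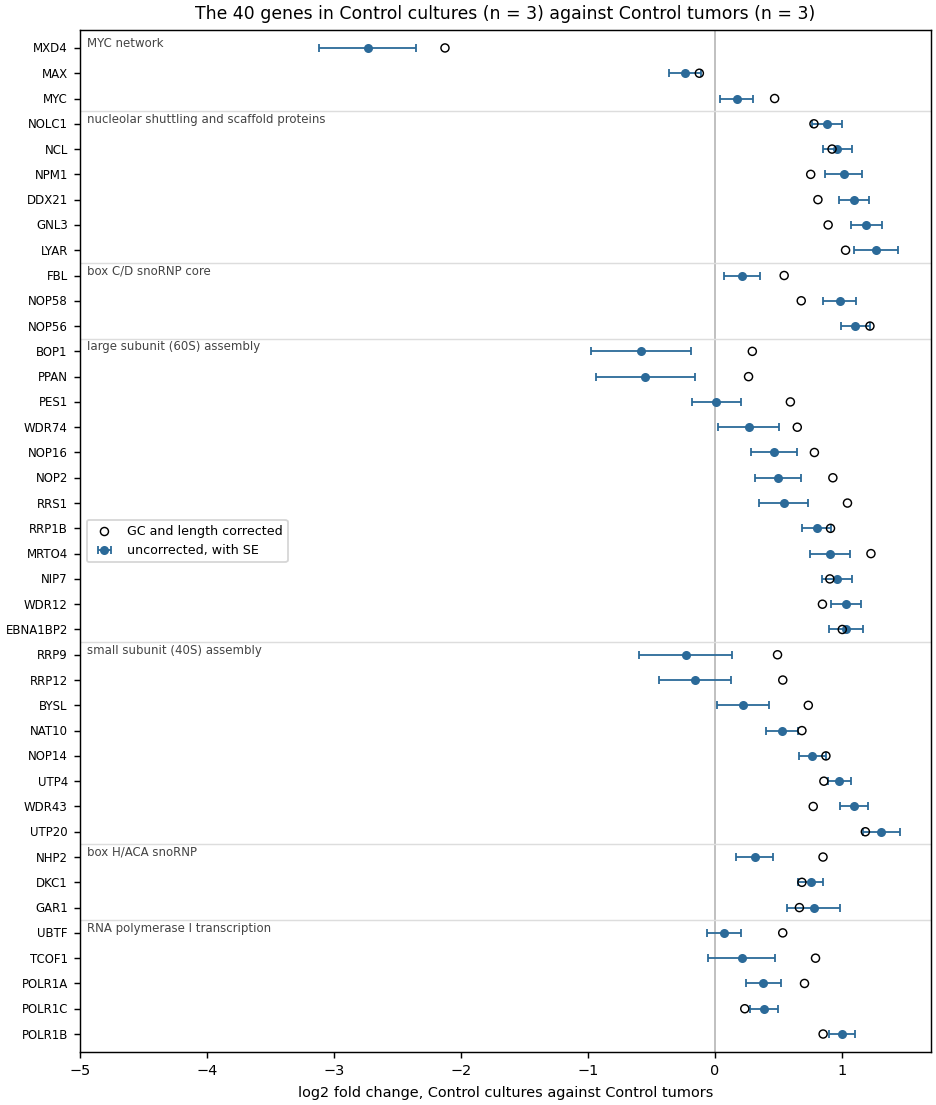
Log2 difference of Control cultures from Control tumors for each of the 40 members, in order of role, with filled points and standard errors for the uncorrected fit and open circles for the fit corrected for GC content and length. Most members lie above 0 and MXD4 lies farthest below it.

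Across cultures, none of the 40 members was called in any drug comparison by edgeR, and none by DESeq2. By edgeR the background was 0% in every direction except combination against Control, where 0.00715% of all genes were called lower. DESeq2 called 0% of all genes in Palbociclib, 0.136% in Telaglenastat and 0.0215% in combination cultures against Control. For the combination it called 0.0215% against Palbociclib and 1.01% against Telaglenastat cultures. At an unadjusted p under 0.05, edgeR listed 0 members in Palbociclib, 4 in Telaglenastat and 3 in combination cultures against Control, 1 for the combination against Palbociclib and 10 for the combination against Telaglenastat. Over all genes these shares were 4.23%, 6.42%, 6.39%, 1.97% and 14.1%. DESeq2 listed 0, 3, 5, 1 and 13 members. With the GC and length correction 0 members were called by edgeR in each of these comparisons. In the combination cultures 17 of the 40 members lay below every Control culture and 0 above (10.4% and 10.9% of all genes). Against Control, 4 members were below and 3 above in Palbociclib cultures (10.1% and 8.19%), and 3 and 0 in Telaglenastat cultures (4.81% and 4.23%). Combination cultures had 9 below and 1 above Palbociclib cultures (6.78% and 7.01%) and 1 and 0 against Telaglenastat cultures (6.21% and 7.46%). Over the 40 members, Pearson's r between GC content and the log2 fold change against Control was -0.852 for Palbociclib, 0.486 for Telaglenastat and -0.717 for combination cultures (-0.462, 0.161 and -0.373 over 13941 genes). The part of this trend in the counts without overlap was not tested. The 17 include FBL (-0.37), NOP56 (-0.21), TCOF1 (-0.64), UBTF (-0.25) and PPAN (-1.18). With no filter on low counts the counts of called members were 1 in Palbociclib (BOP1), 1 in Telaglenastat (UTP20), 3 in combination cultures (TCOF1, NOP2 and BOP1) and 9 for the combination against Telaglenastat (0.434%, 0.388%, 0.566% and 2.43% of all genes). Leaving out Telaglenastat culture replicate 1, 12 members were lower in combination than Telaglenastat cultures and 0 higher (4.12% and 2.27% of all genes). That fit kept only Telaglenastat culture replicates 2 and 3. Replicate 2 had the GC slope that stood apart (0.418, against -0.0191 in replicate 3), and its part in these calls was not tested.

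The drug effect in cultures was tested against the drug effect in tumors. For Telaglenastat, 11 members had a lower and 12 a higher effect in cultures than in tumors (15.6% and 18.5% of all genes), with BOP1 at 2.98 (SE 0.57, adjusted p = 4.55e-04), RRP9 at 2.28 (SE 0.52, adjusted p = 0.00182) and MXD4 at 2.24 (SE 0.51, adjusted p = 0.00179) the highest and UTP20 at -1.19 (SE 0.20, adjusted p = 1.63e-04) the lowest. When corrected, BOP1 (1.19) and UTP20 (-0.74) were still called (background 1.55% lower and 3.25% higher). Without Telaglenastat culture replicate 2, the library with the GC slope apart, 9 members were lower and 9 higher, 18 in all. For the combination, GNL3 at -0.63 (SE 0.17, adjusted p = 0.0388) and NIP7 at -0.73 (SE 0.16, adjusted p = 0.0143) were lower (2.11% and 0.795% of all genes), and neither was called without Control culture replicate 2 or without combination culture replicate 1 or 3 (NIP7 at -0.67, -0.65 and -0.71, GNL3 at -0.53, -0.56 and -0.63). Of 13 fits with 1 library fewer, 2 still called GNL3, and NIP7 was called when corrected (-0.60) while GNL3 was not (background 1.27% lower and 1.23% higher). For Palbociclib, edgeR and DESeq2 called 0 members (0.356% and 1.03% of all genes called by edgeR), with 1 by edgeR at an unadjusted p under 0.05 (14% of all genes).

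Other genes of the pathway, in lists that do not hold the members, moved in both directions. In Telaglenastat tumors 13 of the 44 other 40S genes were lower and 20 higher, 15 and 19 of the 47 other 60S genes, 3 and 4 of the 11 other polymerase I genes, and 4 and 1 of the 10 other small nucleolar particle genes (all genes 28.5% and 22.6%). When corrected, the 40S list had 2 lower and 3 higher and the 60S list 3 and 1 (all genes 8.4% and 6.32%). RUVBL2, an ATPase that assembles the box C/D particle, was at -1.89 (-0.77 when corrected), and TAF1C, of the polymerase I initiation factor, was at -0.77 and turned to 0.51 when corrected. Of the 12 other MYC network genes 6 were lower and 4 higher. When corrected, MNT alone of these 12 was called, and it turned from -0.75 to 0.48. Of the 27 MYC target genes outside the nucleolus 12 were lower and 8 higher. Among these 27, the glutamine transporter SLC1A5 was at -1.52, and at -0.30 when corrected. Control cultures against Control tumors had 33 of the 40S and 34 of the 60S lists higher and 0 and 1 lower (all genes 22.8% higher and 23.1% lower). LTV1 was at 1.43, MAK16 at 1.20 and the transferrin receptor TFRC at 1.69. MXD1, a relative of MXD4, was at -1.44 in that comparison. Palbociclib tumors held 2 lower genes of the MYC target list, TFRC at -0.53 among them, and the 40S gene NOL11 at -0.28 (3.6% of all genes were lower).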

How the data were processed

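Gene expression was measured by poly(A) RNA sequencing of 16 tumors and 12 tumor-derived cultures. The authors prepared strand-specific libraries (uracil marks the second strand) from RNA with an integrity number above 8, sequenced single-end reads of 60 bases, demultiplexed them with CASAVA 1.8 and aligned them with STAR to hg38. They deposited raw counts per gene, not normalized, and the counting tool's strand setting and annotation release are not given in the sources used here. Depth was 6273834 to 13815675 counts per library, and counting error limits low members most.

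From the deposited counts, TMM scaling, a low-count filter (filterByExpr, minimum count 10) and edgeR 4.0.16 quasi-likelihood tests (R 4.3.3) were run with group means as the model, separately for tumors (14848 genes) and cultures (13985 genes), and for both tissues together where they are compared (15466 genes). Benjamini-Hochberg adjustment ran over all genes tested. CPM beside drug effects are scaled within tumors or within cultures, and CPM beside culture-tumor differences over all 28 libraries. The GC and length correction fitted, per library, a robust spline (4 degrees of freedom, MASS 7.3.60.0.1) of log2 CPM deviations on GC content of the longest GENCODE 29 transcript and on exon length, entered as offsets. Other alternatives were DESeq2 1.42.0, its size factors, no filter, a replicate block, one fit of 28 libraries, only the groups compared, and leaving out each library. The tests were checked on simulated counts that held no GC trend by library and no outlying library, so that check does not cover these features. The members, the gene lists and the tests were chosen with earlier results of these data known. Values in every library are given for MYC, MAX and MXD4 and, in each role, for up to 3 members with the largest absolute log2 fold change among those called with groups that did not overlap, against Control or between Control cultures and Control tumors. In the other lists the largest rise and fall of that kind could be named. Groups followed the sample labels.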

Additional observations from a re-analysis of the deposited data

Results flagged for a closer look

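In 8 of 120 groups of 4 or 5 libraries, 1 library stood far from the others, where chance gives about 1 in 20. The groups share libraries across genes, so they are not independent. Palbociclib tumor replicate 2, named below for TCOF1, RRP9 and WDR12, had the lowest GC slope of its group (0.0968). The part of this slope in its values was not tested. TCOF1 was at 44.7 CPM in Palbociclib tumor replicate 2, and the nearest other library of that group was at 75.6 CPM. TCOF1 was at 42.1 CPM in combination tumor replicate 2, and the nearest other library of that group was at 36.3 CPM. NAT10 was at 78.9 CPM in combination tumor replicate 3, and the nearest other library of that group was at 99.1 CPM. RRP9 was at 13.1 CPM in Palbociclib tumor replicate 2, and the nearest other library of that group was at 22.4 CPM. PES1 was at 61.5 CPM in combination tumor replicate 2, and the nearest other library of that group was at 47.9 CPM. WDR12 was at 93.8 CPM in Palbociclib tumor replicate 2, and the nearest other library of that group was at 77.5 CPM. MRTO4 was at 58.5 CPM in Telaglenastat tumor replicate 2, and the nearest other library of that group was at 52.8 CPM. EBNA1BP2 was at 95.8 CPM in Palbociclib tumor replicate 5, and the nearest other library of that group was at 80.6 CPM. 

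The effect of a drug (in cultures, of the earlier treatment of their tumor) differed between cultures and tumors in 25 cases. This was by a test of the difference itself (edgeR's quasi-likelihood test, adjusted p under 0.05). For Telaglenastat the log2 effect in cultures minus that in tumors was above 0 in BOP1 2.98, RRP9 2.28, MXD4 2.24, PPAN 1.7, RRP12 1.57, WDR74 1.36, PES1 1.10, TCOF1 1.09, BYSL 0.90, FBL 0.89, NHP2 0.85 and MYC 0.64. It was below 0 in UTP20 -1.19, GNL3 -0.72, WDR43 -0.66, POLR1B -0.63, DDX21 -0.58, NCL -0.57, NOP58 -0.54, RRP1B -0.52, NIP7 -0.49, UTP4 -0.47 and WDR12 -0.46. For the combination it was below 0 in GNL3 -0.63 and NIP7 -0.73. Over all genes, 15.6% were called below and 18.5% above 0 for Telaglenastat, and 2.11% and 0.795% for the combination. With the GC and length correction only BOP1 and UTP20 for Telaglenastat and NIP7 for the combination were still called. BYSL, WDR12 and NHP2 turned sign for Telaglenastat. Telaglenastat culture replicate 2, whose GC slope stood apart, belongs to these libraries, and its part in the result was not tested beyond the counts without it.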

How the results depend on the processing

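The replicate numbers did not pair the libraries within tumors or within cultures. Correlations of same-numbered libraries had a median of -0.034 over 18 pairs of cultures (3 over 0.1) and -0.004 over 21 pairs of tumors (0 over 0.1). Pairing of a culture with the tumor it was grown from was not tested, and the tests between tissues treat these libraries as independent. The replicate block gave 30 called members in Telaglenastat tumors, 23 in combination tumors, 27 for the combination against Palbociclib tumors, 6 for the combination against Telaglenastat tumors, 27 for Control cultures against tumors, and 23 and 2 for the differences of the Telaglenastat and combination effects between tissues. The GC and length correction (with the block in brackets) changed the called members as follows: Telaglenastat tumors 30 to 10 (8), combination tumors 22 to 12 (11), combination against Palbociclib 29 to 10 (8), the Telaglenastat difference between tissues 23 to 2 (0) and the combination difference 2 to 1 (1), while Palbociclib tumors stayed at 0 (1). Over all tested genes the called share in these tumor comparisons went, in that order, from 51.1% to 14.7%, 44.5% to 26.3% and 47.6% to 15.3%. It went from 34.1% to 4.8% and 2.91% to 2.5% for the differences, and from 6.15% to 7.72% in Palbociclib tumors. Of 138 single-gene values the correction left 54 on their side of the threshold, 69 lost the call and 15 turned sign. Those that turned were, in Telaglenastat tumors, MRTO4 0.13 (0.14), UBTF 0.27 (0.25), NAT10 0.0114, MYC 0.0782 (0.10) and NHP2 0.28 (0.28), in combination tumors MRTO4 0.0691 (0.0802), MXD4 0.0330 (0.0022) and NHP2 0.31 (0.32), against Palbociclib MRTO4 0.0917 (0.0902), UBTF 0.17 (0.22), NHP2 0.23 (0.21) and DDX21 -0.0050 (-0.0153), and in the Telaglenastat difference BYSL -0.0444 (-0.0454), WDR12 0.0258 (0.0184) and NHP2 -0.11 (-0.13). Elsewhere, DESeq2 called 1 member in Palbociclib tumors and 9 for the combination against Telaglenastat tumors (5), one fit of 28 libraries 2 there and 2 in cultures, and only the groups compared 8. Over all genes DESeq2 called 7.9% in Palbociclib tumors and 20.3% for the combination against Telaglenastat tumors (18.8% by edgeR). With no filter, cultures had 1, 1, 3 and 9 called members (Palbociclib, Telaglenastat, combination, and combination against Telaglenastat). The shares of all genes there were 0.434%, 0.388%, 0.566% and 2.43%. The combination difference had 1 with size factors, 4 with no filter and 11 with only the groups compared. Leaving out 1 library gave 25 to 30 for Telaglenastat tumors, 19 to 23 for combination tumors, 26 to 31 against Palbociclib, 4 to 8 against Telaglenastat (8 without combination tumor replicate 1), 0 to 12 for those cultures, 24 to 25 for cultures against tumors, 17 to 26 and 0 to 2 for the 2 differences between tissues. The cause of these shifts was not tested, and counts above with no share over all genes beside them were not set against a background.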
